A study of Mus musculus with 12 samples.

Results

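Dihydrotestosterone (DHT) was compared with testosterone in mouse kidney tubule cells that express the S42L mutant of human sex hormone-binding globulin (SHBG). The comparison uses 6 of the 12 arrays of the study, 3 of S42L cells given DHT and 3 of S42L cells given testosterone, chosen by their titles. The other 6 arrays, of cells with wild-type human SHBG given DHT or testosterone, entered the statistical model and served to test where the S42L cells differ. The parent line was PKSV-PCT, which derives from mouse proximal convoluted tubule and grows indefinitely. It was stably transfected with human SHBG cDNA in the pRC/CMV vector, so that a viral promoter active in many cell types drove SHBG. Both sublines came from limiting dilution and were picked by the SHBG they secreted. No steroid binding was detectable for the S42L protein, per the labels' protocols. A subline is a clone, so the SHBG variant and the clone it sits in cannot be told apart.

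DHT (5α-dihydrotestosterone) or testosterone was given at 100 nM for 24 h. The labels also name 3 days in steroid-free medium, worded as coming after the hormone, and the order of the steps is given here as worded. The growth medium of all 4 groups held serum, insulin, dexamethasone, triiodothyronine and EGF. There was no untreated group, so a difference between the hormones does not say which of them moved a gene. The 6 arrays given DHT shared a chip and so did the 6 given testosterone, and on each chip S42L cells took the upper positions. Hormone and chip therefore cannot be told apart within a subline, and every DHT minus testosterone difference below is also a difference between chips. Nothing in the labels says that the 3 replicates were separate cultures, so p-values measure the spread between these arrays, which may be technical.

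Testosterone is the main circulating androgen, and DHT is made from it by 5α-reduction, which removes the double bond in the A ring of the steroid. Both act in target cells by changing transcription, and DHT is the more potent of them. In many tissues 5α-reductases make DHT locally, and other enzymes interconvert or conjugate both steroids. SHBG is the plasma carrier of androgens and estradiol and binds DHT more tightly than testosterone. The proximal tubule of the mouse kidney is a known androgen target, in which androgens raise ornithine decarboxylase and other tubule proteins.

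The S42L arrays had mean signals of 560 to 707 and 17824 to 19204 detected probes. The first principal component of these 6 arrays, with 37.6% of the variance, separated the hormones. On the second, with 21.9%, S42L DHT replicate 1 lay at 18.9 and the other DHT arrays at -14.8 and -18.1. Of 17 proximal tubule markers with a named probe, 10 were detected on all 6 S42L arrays, among them Lrp2, Aqp1, Anpep and Hnf4a, 2 on some arrays and 5 on none. The undetected markers included Cubn, Slc34a1 and Kap, the kidney androgen-regulated protein. Their summed linear signal was 16466 to 18188 on the DHT arrays and 19573 to 20366 on the testosterone arrays. The part of this shift in the results below was not tested. The leukocyte markers Ptprc, Adgre1, Itgam and Cd3e were detected on none of the 6 arrays, as were the endothelial markers Cdh5 and Tek and 6 of 8 fibroblast markers. The leukocyte marker Csf1r, the endothelial marker Flt1 and the fibroblast marker Dcn were detected on all 6. So were the distal nephron markers Slc12a3 and Scnn1a and the podocyte markers Podxl and Synpo. Summed fibroblast markers were at 2065 to 2537 on the DHT arrays and 1599 to 1872 on the testosterone arrays. Col1a1, the fibrillar collagen chain, was detected on 3 DHT arrays and on 0 testosterone arrays.

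Of 19480 probes tested, 52 (0.267%) passed an adjusted p under 0.05 in S42L cells (limma, Benjamini-Hochberg over all probes), 8 higher (0.0411%) and 44 lower (0.226%) with DHT than with testosterone. A gene was represented by its brightest tested probe. On that basis 29 of 10340 genes (0.280%) were called, 4 higher (0.0387%) and 25 lower (0.242%). The higher genes were Unc13a, Grik5, Egln3 and Aldoc. The lower genes were led by Egr1, Erich4, G6pc2, Bnip5, Selenop and Slc6a13, the 6 whose difference reached 2-fold or more. Of the 29, 27 were detected with both hormones, and their differences ran from 0.54 to 1.18 in size on the log2 scale. Erich4 and Selenop were detected on 2 and 1 of the 3 DHT arrays, so the size of their falls rests partly on signals not above background. The arrays of the 2 hormones overlapped for none of the 29 genes, but separation was common: 12.4% of all genes tested were higher on every DHT array than on any testosterone array, and 12.2% were lower. At an unadjusted p under 0.05 there were 1229 genes (11.9%), 535 higher (5.17%) and 694 lower (6.71%). Counts at this threshold given for gene lists below are to be read beside these shares. The median 95% interval of a difference, without adjustment, reached 0.316 log2 units to either side. After adjustment no gene with a difference smaller than 0.54 in size was called with 3 arrays per hormone.

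These calls rest on few arrays. Leaving out any 1 of the S42L arrays left between 2 and 12 probes called. The lowest count, 2, was without S42L DHT replicate 3. The highest, 12, was without S42L DHT replicate 1, where 5 of the 29 genes passed. Each of the 29 genes kept its direction under all 22 alternative settings, and Egr1 was the only gene that passed in every one. For 9 of the genes more than 1 probe was tested, and with their probes averaged 8 of the 9 no longer passed, with Selenop the exception.

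**Figure D1:**
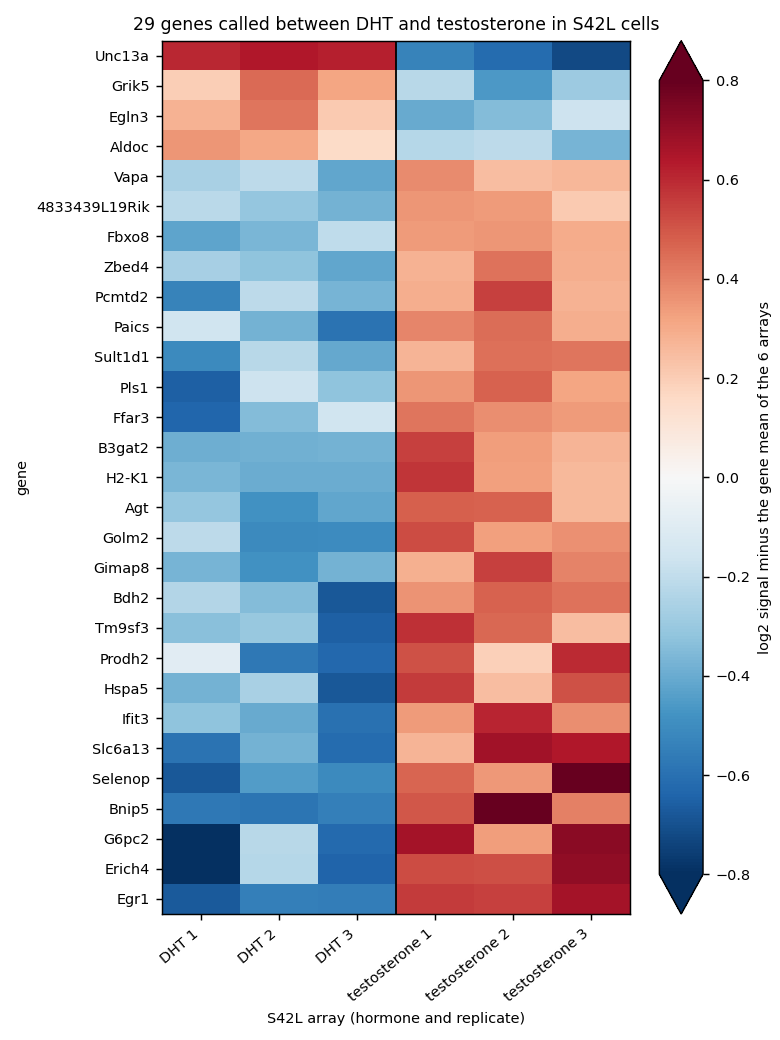
Log2 normalized signal of the 29 called genes on each S42L array, minus the mean of the gene over the 6 arrays. Columns are the 3 DHT arrays on the left and the 3 testosterone arrays on the right, rows run from the largest rise to the largest fall, and colours beyond 0.8 in size are drawn at the end of the scale. The 4 genes at the top were higher on every DHT array and the 25 below were lower on every DHT array.

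Egln3 and Aldoc, higher with DHT, and Hspa5, lower, are 3 called genes of ordered pathways. Others, such as the purine synthesis gene Paics, were also called. Egln3, Aldoc and Hspa5 passed in 8, 8 and 9 of the 22 alternative settings. They passed in 0 of the settings that left out an S42L array. The 250 bases before their RefSeq start sites (GRCm38.p6) are shown because each holds a short motif known for the pathway named with it. Capitals mark the core of the hypoxia response element (ACGTG or GCGTG) in Egln3 and Aldoc and the ER stress element (CCAAT and CCACG with 9 free bases between them) in Hspa5, searched on both strands. The Hspa5 window also holds the hypoxia core, 155 bases before the start and left in lower case, so that core is in all 3 windows. The Egln3 window is chr12:54203875-54204124 on the minus strand, and its match begins 229 bases before the start.
Egln3: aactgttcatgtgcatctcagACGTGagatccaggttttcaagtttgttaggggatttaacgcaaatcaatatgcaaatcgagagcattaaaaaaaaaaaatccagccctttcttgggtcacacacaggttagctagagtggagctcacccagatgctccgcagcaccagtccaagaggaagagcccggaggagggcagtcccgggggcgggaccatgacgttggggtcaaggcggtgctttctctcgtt
The Aldoc window is chr11:78322823-78323072 on the plus strand, the first of 2 starts listed, and its match begins 50 bases before the start.
Aldoc: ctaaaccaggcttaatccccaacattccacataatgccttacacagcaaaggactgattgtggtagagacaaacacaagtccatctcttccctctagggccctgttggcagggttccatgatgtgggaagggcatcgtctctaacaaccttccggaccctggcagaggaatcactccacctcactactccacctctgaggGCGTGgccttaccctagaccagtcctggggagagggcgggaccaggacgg
The Hspa5 window is chr2:34771840-34772089 on the plus strand, and its match begins 65 bases before the start.
Hspa5: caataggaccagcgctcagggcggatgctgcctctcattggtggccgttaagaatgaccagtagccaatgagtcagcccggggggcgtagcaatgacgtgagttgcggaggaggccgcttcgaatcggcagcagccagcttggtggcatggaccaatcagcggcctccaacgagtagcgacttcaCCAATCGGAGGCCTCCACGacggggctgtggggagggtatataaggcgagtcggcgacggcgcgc
The hypoxia core is common, with 38.6% of 32851 promoter windows of this length holding it, while the ER stress element was in 0.113%. The 24 called genes with a window had 32 windows, of which 15 held the hypoxia core (46.9%) and 1 the ER stress element. Counted by gene, with a match in any window, 13 of the 24 held the hypoxia core, against 41.5% of the 27025 genes with a window. The androgen response element, searched on both strands as AGAACA and TGTTCT with 3 free bases between them, was in 0.00913% of windows and in 0 of the 32. A match is a description of these letters, not of binding.

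Among the genes that were higher with DHT, Unc13a, which primes vesicles for fusion in neurons, had the largest difference. Its log2 signal was 6.06, 6.10 and 6.08 on the DHT arrays, against 4.92, 4.84 and 4.73 on the testosterone arrays. It was detected on 3 of 3 DHT arrays and on 0 of 3 testosterone arrays, so it was at least 2.05-fold higher with DHT (adjusted p = 0.0086). That bound sets the DHT mean against the higher of the probe's own value and the lowest detected signal on each testosterone array. Grik5, a subunit of kainate-type glutamate receptors, was at 6.14, 6.40 and 6.26 with DHT, against 5.72, 5.48 and 5.65 with testosterone. The difference was 0.65 ± 0.11 (log2 units, SE; adjusted p = 0.0391), while a second, dimmer Grik5 probe gave -0.08. With the probes of the gene averaged, Grik5 no longer passed (0.29, adjusted p = 0.329).

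Egln3 belongs to the oxygen-sensing step of the hypoxia pathway. Prolyl hydroxylases of the EGLN family mark the alpha subunits of the hypoxia-inducible factor (HIF), the VHL protein binds the marked subunits, and they are then degraded. Egln3 is itself a known HIF target. In S42L cells its log2 signal was 8.40, 8.54 and 8.33 with DHT, against 7.71, 7.78 and 7.95 with testosterone, 1.53-fold higher with DHT (0.61 ± 0.10 log2 units, adjusted p = 0.0391). A dimmer Egln3 probe, detected on 7 of 12 arrays, gave -0.16. With both probes averaged the difference was 0.23 (adjusted p = 0.387), so the S42L call belongs to the brighter probe.

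Egln3 went the other way in wild-type SHBG cells. There its log2 signal was 7.99, 8.00 and 8.00 with DHT, against 9.04, 8.93 and 9.07 with testosterone, a difference of -1.01 ± 0.10 (adjusted p = 0.00448). The 2 sublines differed in this response by 1.63 ± 0.14 log2 units (S42L minus wild-type, adjusted p = 0.00135). A chip effect that is equal in both sublines drops out of this difference. It was the only one of 19480 probes (0.00513%) that passed this test, against 905 probes (4.65%) at an unadjusted p under 0.05. It passed under all 20 alternative settings tried for it, with values of 1.22 to 1.70. Averaging the probes of the gene was not among these settings. The dimmer Egln3 probe was also tested for the difference between sublines and did not pass.

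**Figure D2:**
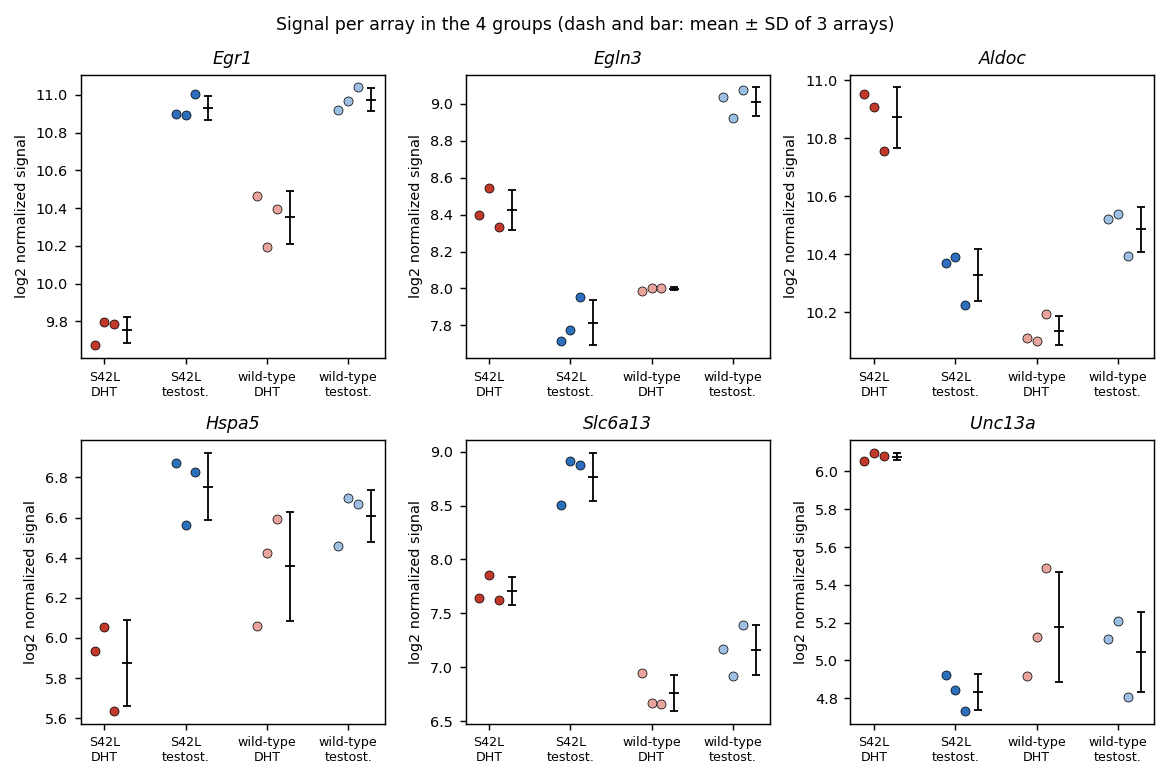
Log2 normalized signal of Egr1, Egln3, Aldoc, Hspa5, Slc6a13 and Unc13a on each array (points) in S42L DHT, S42L testosterone, wild-type DHT and wild-type testosterone groups, with the mean and SD of 3 arrays beside the points. Egln3 and Aldoc were higher with DHT in S42L cells and lower with DHT in wild-type cells, and the wild-type Aldoc difference did not pass the test. Egr1 was lower with DHT on every array in both sublines. The vertical axes differ between panels and do not start at 0.

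No other gene of the hypoxia list used here passed the test. Aldoc, described below, is on the glycolysis list and not on this one. Of 27 hypoxia genes tested, 1 was called higher and 0 lower, and the median difference was 0.06, beside 0.00065 for all genes tested. The HIF subunits Hif1a and Arnt gave -0.09 ± 0.18 and 0.07 ± 0.13, and the hydroxylases Egln1 and Egln2 gave -0.04 ± 0.17 and 0.18 ± 0.17 (log2 differences, SE). None of these 4 passed. Vhl was at 6.90, 6.27 and 6.82 with DHT, against 7.34, 7.25 and 7.21 with testosterone (-0.61 ± 0.15, adjusted p = 0.103). Among HIF targets, Ankrd37 gave -0.56 ± 0.16 and the MYC antagonist Mxi1 gave -0.51 ± 0.13, while Bnip3l gave 0.17 ± 0.12 and the growth factor Vegfa -0.06 ± 0.10. Egln1, Egln2, Ankrd37, Mxi1, Bnip3l and Vegfa were chosen after their values were seen. In wild-type cells the list's median was -0.15, and with arrays scaled to a common median the S42L value was -0.05, beside -0.08 for all genes.

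In glycolysis, glucose enters through Slc2a1, hexokinase and phosphofructokinase trap and commit it, aldolase splits the sugar, and the lower steps yield pyruvate and lactate. Of 18 genes tested, 1 was called higher and 0 lower. The median was 0.08, and 16 of the 18 lay above 0, against 5188 of 10340 over all genes. With median scaling the list's median was 0.10, beside -0.08 for all genes. The wild-type median was -0.06.

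Aldoc, the aldolase C gene, was the called member. It was at 10.95, 10.91 and 10.76 with DHT, against 10.37, 10.39 and 10.23 with testosterone (0.54 ± 0.10, 1.46-fold, adjusted p = 0.0457). Every DHT array was above every testosterone array. In wild-type cells Aldoc gave -0.35 (adjusted p = 0.181). The difference between sublines was 0.89 ± 0.14 and did not pass (adjusted p = 0.186), passing in 3 of 20 alternative settings.

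Along the pathway, the glucose transporter Slc2a1 stood at 12.67, 12.70 and 12.81 with DHT, against 12.48, 12.36 and 12.35 with testosterone (0.33 ± 0.11, adjusted p = 0.219). Its arrays did not overlap, yet it did not pass. Without overlap, 4 of the 18 genes were higher and 0 lower, beside 12.4% and 12.2% of all genes tested. Hexokinase Hk1 gave -0.05 ± 0.17 and the phosphofructokinase genes Pfkl, Pfkp and Pfkm gave 0.23 ± 0.13, 0.01 ± 0.12 and 0.05 ± 0.09. The other aldolase gene, Aldoa, gave 0.02 ± 0.14, an interval of -0.28 to 0.32 that excludes the value of Aldoc. Differences at the steps below aldolase were 0.10 for Tpi1, 0.02 for Gapdh, 0.19 for Pgk1, 0.06 for Pgam1, 0.06 for Eno2 and 0.11 for Pkm. Ldha, which makes lactate, gave 0.24, and Pdk1, which blocks pyruvate entry into the citrate cycle, gave 0.22. None of these passed. The interval of Slc2a1 was 0.09 to 0.57, and those of the genes named after it in this paragraph all included 0. The genes after Pfkl were named after their values were seen.

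**Figure D3:**
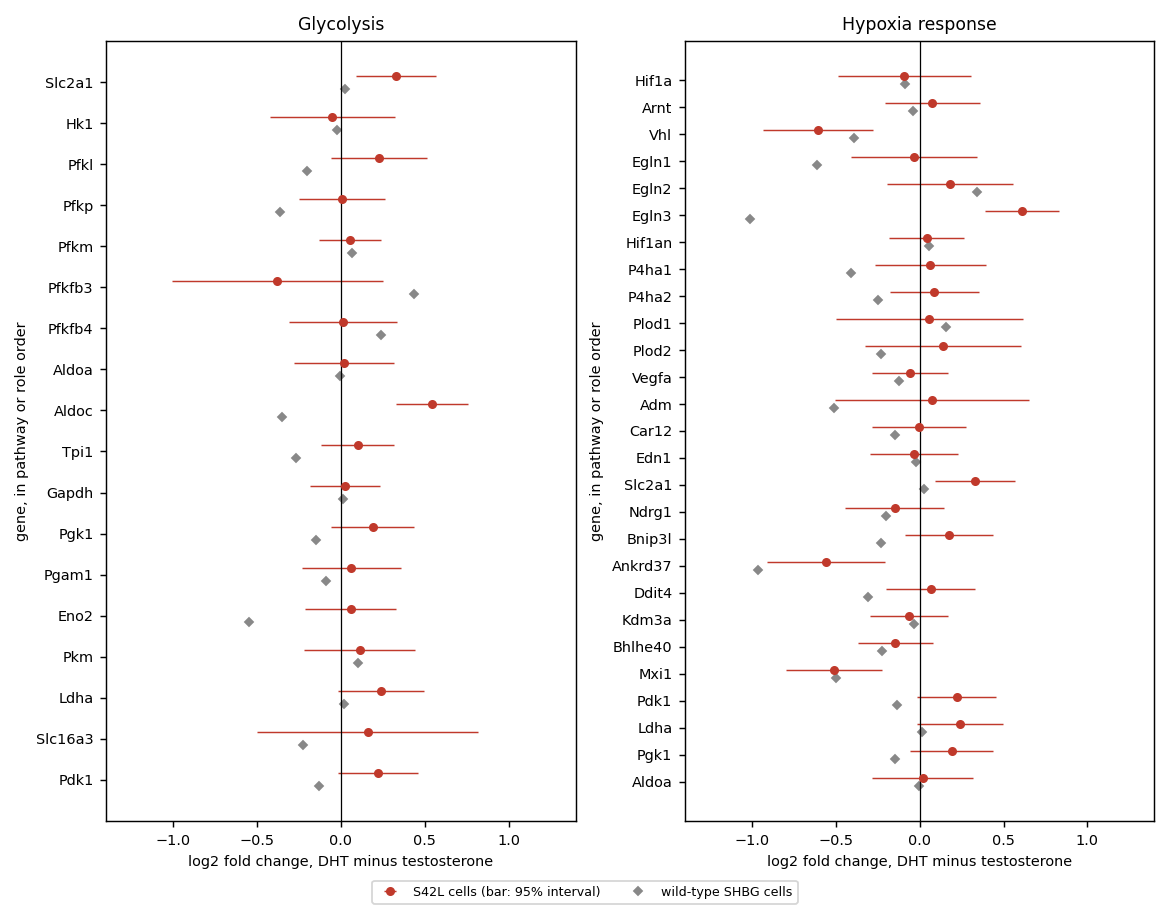
DHT minus testosterone differences (log2 units) of the genes of glycolysis, in the order of the steps, and of the hypoxia response, by role. Circles are S42L cells with 95% intervals, diamonds are wild-type SHBG cells. Egln3 and Aldoc stand to the right in S42L cells and to the left in wild-type cells, while 16 of 18 glycolysis genes lie right of 0 in S42L cells.

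Egr1, a zinc finger factor made within minutes of growth factor signalling through MAP kinase, had the largest fall of all genes tested. Its log2 signal was 9.67, 9.80 and 9.79 on the S42L DHT arrays, against 10.90, 10.89 and 11.01 on the testosterone arrays. It was 2.27-fold lower with DHT (-1.18 ± 0.10, adjusted p = 0.00098). In wild-type cells it was at 10.47, 10.19 and 10.40 with DHT, against 10.92, 10.97 and 11.04 with testosterone (-0.62, adjusted p = 0.0529). The testosterone arrays of both sublines were close in level, and the S42L DHT arrays were the lowest of the 12. The difference between sublines, -0.56, did not pass (adjusted p = 0.71).

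Of 28 immediate early factors and MAP kinase feedback genes tested, Egr1 was the only one called. At an unadjusted p under 0.05 there were 6 lower genes, Egr1, Jun, Dusp1, Fosl2, Fos and Myc, and 0 higher ones. Over all genes tested, 6.71% were lower and 5.17% higher at that threshold. The median of the list was 0.04, with 15 genes above 0 and 13 below. With median scaling it was -0.06, beside -0.08 for all genes.

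By role, the AP-1 genes split. Jun was at 6.01, 6.38 and 6.30 with DHT, against 6.65, 7.08 and 7.26 with testosterone (-0.77 ± 0.15, adjusted p = 0.0614). Fos, its partner, was at 6.87, 6.67 and 6.92 with DHT, against 7.17, 7.11 and 7.01 with testosterone (-0.28 ± 0.12, adjusted p = 0.358). Fosl2 gave -0.31 ± 0.11 and Junb 0.14 ± 0.20. Jund had the highest AP-1 value, 0.48, and did not pass. It was at 8.56, 8.54 and 8.60 with DHT, against 7.95, 8.33 and 8.00 with testosterone. Among the phosphatases that end MAP kinase signals, Dusp1 was at 8.27, 8.29 and 8.64 with DHT, against 8.94, 8.87 and 9.05 with testosterone (-0.55 ± 0.13, adjusted p = 0.0841). Dusp10 gave 0.55 ± 0.33 and Dusp6 0.08. Myc, Junb, Jund, Dusp1, Dusp6 and Dusp10 were picked after their values were seen.

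Hspa5 encodes BiP, the HSP70 chaperone of the endoplasmic reticulum, which holds the sensors of the unfolded protein response inactive and is itself induced by them. It was lower with DHT, at 5.94, 6.06 and 5.64, against 6.87, 6.56 and 6.83 with testosterone (-0.88 ± 0.16, 1.84-fold, adjusted p = 0.0438). It was detected on all 6 arrays and is read from 1 named probe. That probe was dim: Agt, undetected on the same DHT arrays, read 4.37 to 4.54 there. The size of the Hspa5 difference depended on the processing, from -0.99 to -0.37 over the 22 alternative settings. In wild-type cells the difference was -0.25 (adjusted p = 0.564), and the difference between sublines did not pass (-0.63, adjusted p = 1).

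No other gene of the unfolded protein response passed the test. Of 23 tested, 0 were called higher and 1 lower, with 17 below 0 and a median of -0.08, which with median scaling was -0.17, beside -0.08 for all genes. The sensors Ern1 and Eif2ak3 gave -0.13 ± 0.16 and 0.03 ± 0.25, and the factor Xbp1 gave -0.17 ± 0.10. The ER HSP90, Hsp90b1, was at 12.87, 13.23 and 13.20 with DHT, against 13.31, 13.09 and 13.08 with testosterone (-0.06 ± 0.13), and its interval of -0.34 to 0.22 excludes the value of Hspa5. Dnajb9, a BiP cochaperone, gave -0.27 ± 0.10 and Herpud1, of ER-associated degradation, gave 0.27 ± 0.12. Hsp90b1, Dnajb9 and Herpud1 were chosen after their values were seen. Of the stress factors downstream of the sensor Eif2ak3, Ddit3 gave 0.02 ± 0.12, Trib3 0.01 ± 0.10 and the asparagine synthetase gene Asns -0.05 ± 0.10. The 34 genes of the ATF4 amino acid response had 0 calls (3 higher and 3 lower at an unadjusted p under 0.05) and a median of 0.0071.

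Heat shock chaperones, a list with 5 small and mitochondrial chaperones among its members, had 0 calls among 21 genes. At an unadjusted p under 0.05 there were 6 lower, against 6.71% of all genes, and 0 higher. The median was -0.11, and -0.14 with median scaling. Hsp90aa1, which holds steroid receptors ready to bind hormone, was at 10.32, 10.41 and 10.41 with DHT, against 10.94, 10.75 and 10.65 with testosterone (-0.40 ± 0.12, adjusted p = 0.15). The p23 cochaperone gene Ptges3 was at 9.68, 9.86 and 9.89 with DHT, against 10.47, 10.21 and 10.26 with testosterone (-0.50 ± 0.10, adjusted p = 0.0648). Both sets of arrays stood apart, and neither gene passed. Without overlap, 9 of the 21 genes were lower and 0 higher, beside 12.2% and 12.4% of all genes tested. Hspa4 gave -0.53 ± 0.13 (adjusted p = 0.0933) and the constitutive HSP70 gene Hspa8 gave -0.15 ± 0.10. Ptges3 and Hspa4 were singled out after their values were seen.

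Transport and enzyme genes of the proximal tubule included the called gene Slc6a13, a sodium-coupled carrier of GABA and taurine. Its log2 signal was 7.64, 7.86 and 7.62 with DHT, against 8.51, 8.91 and 8.88 with testosterone, 2.08-fold lower with DHT (-1.06 ± 0.15, adjusted p = 0.0228). All wild-type arrays were lower, at 6.95, 6.67 and 6.66 with DHT, against 7.17, 6.92 and 7.39 with testosterone (-0.40, adjusted p = 0.315). Of 22 amino acid transporters, 1 was called, and the median was -0.0070. The taurine transporter gene Slc6a6, of the same family, gave 0.01 ± 0.10, and the neutral amino acid carriers Slc1a4 and Slc1a5 gave -0.06 ± 0.11 and 0.11 ± 0.14. The 8 tested genes of the SLC7 light chains with their heavy chains had a median of -0.26, and the other role groups 0.0051 and 0.06.

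Proximal tubule markers had 0 calls among 23 genes tested, with 8 lower and 2 higher at an unadjusted p under 0.05 and a median of -0.11 (-0.20 with median scaling, beside -0.08 for all genes). The wild-type median was -0.09. At the same unadjusted threshold in S42L cells, 6.71% of all genes tested were lower and 5.17% higher. The water channel Aqp1 was at 10.37, 10.57 and 10.30 with DHT, against 11.09, 11.21 and 11.36 with testosterone (-0.80 ± 0.15, adjusted p = 0.0518). Anpep, a brush border peptidase, was at 5.39, 5.47 and 5.29 with DHT, against 6.18, 6.50 and 6.43 with testosterone (-0.99 ± 0.20, adjusted p = 0.0628). Another brush border protease gene, Mep1a, gave -0.67 ± 0.17 (adjusted p = 0.101). These 3 genes did not overlap between hormones but did not pass. Without overlap, 7 of the 23 markers were lower and 3 higher, beside 12.2% and 12.4% of all genes tested.

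Brush border enzymes had a median of -0.32 over 6 genes, transporters and channels 0.01 over 6, and transcription factors and scaffolds -0.06 over 8. Lrp2, the endocytic receptor megalin that takes up SHBG and other carriers, was at 9.93, 10.06 and 9.80 with DHT, against 10.26, 10.24 and 10.06 with testosterone (-0.26 ± 0.11, adjusted p = 0.373). Its arrays touched at 10.06. The megalin partners Amn and Dab2 gave 0.07 ± 0.10 and -0.09 ± 0.12. The bicarbonate cotransporter Slc4a4 was at 9.28, 9.46 and 9.40 with DHT, against 8.81, 8.88 and 8.84 with testosterone (0.53 ± 0.13, adjusted p = 0.101). Nuclear factors of the tubule also differed in sign, with Hnf4a at -0.36 ± 0.12, Pax8 at -0.91 ± 0.29 and Pax2 at 0.62 ± 0.36, none of which passed. Aqp1, Anpep, Mep1a, Slc4a4, Hnf4a, Pax8 and Pax2 were chosen after their values were seen.

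Selenop, the plasma selenoprotein that carries selenium, was at 4.81, 5.04 and 4.98 with DHT, against 5.95, 5.84 and 6.31 with testosterone (-1.09 ± 0.16, 2.13-fold lower, adjusted p = 0.0272). It was detected on 1 of 3 DHT arrays and on 3 of 3 testosterone arrays. The DHT level is therefore close to background, and the fold is that of the measured signals. A second Selenop probe gave -0.63 (adjusted p = 0.11). Selenop was the 1 called gene among 42 of the NRF2 and glutathione list, whose median was 0.05. The factor Nfe2l2 gave -0.14 ± 0.11, its inhibitor Keap1 0.19 ± 0.12 and the related factor Nfe2l1 0.04 ± 0.11.

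Genes of other enzymes and secreted proteins were lower with DHT as well. G6pc2, a glucose-6-phosphatase subunit known from pancreatic islets, was at 5.65, 6.31 and 5.91 with DHT, against 7.20, 6.87 and 7.26 with testosterone (-1.15 ± 0.16, adjusted p = 0.0225). It was detected on 0 of the 6 wild-type arrays. A second G6pc2 probe gave -0.33 (adjusted p = 0.521), and with both averaged the difference was -0.74 and did not pass (adjusted p = 0.0709). Prodh2, a mitochondrial hydroxyproline dehydrogenase, was at 5.33, 4.85 and 4.79 with DHT, against 5.93, 5.61 and 6.02 with testosterone (-0.86 ± 0.15, adjusted p = 0.0391). It too was undetected in wild-type cells and was detected on 1 of 3 S42L DHT arrays. The 3 testosterone arrays of S42L cells were thus needed for it to pass the detection filter. Another Prodh2 probe gave -0.12, and with the probes averaged the call was lost (-0.49, adjusted p = 0.0655). Agt, which encodes the precursor of angiotensin, was at 4.54, 4.37 and 4.44 with DHT, against 5.33, 5.32 and 5.11 with testosterone. It was detected on 0 DHT arrays and 3 testosterone arrays of S42L cells, at least 1.17-fold lower with DHT (adjusted p = 0.0209), and on 0 wild-type arrays. Agt thus passed the detection filter only through the group where it was high, and its p-value carries that limit. Bdh2, a cytosolic hydroxybutyrate dehydrogenase, was at 8.45, 8.34 and 8.01 with DHT, against 9.04, 9.16 and 9.12 with testosterone (-0.84 ± 0.15, adjusted p = 0.0391).

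Interferon and antigen presentation genes had 2 calls among 31 tested, both lower with DHT, and a median of 0.04. Ifit3, an interferon-induced RNA-response protein, was at 7.15, 7.06 and 6.87 with DHT, against 7.81, 8.08 and 7.84 with testosterone (-0.88 ± 0.13, 1.84-fold, adjusted p = 0.0266). In wild-type cells it lay between 5.23 and 5.57 with either hormone, and a second Ifit3 probe gave -0.04. With both probes averaged Ifit3 no longer passed (-0.46, adjusted p = 0.234). H2-K1, a class I heavy chain, was at 6.74, 6.70 and 6.70 with DHT, against 7.67, 7.43 and 7.36 with testosterone (-0.77 ± 0.14, adjusted p = 0.0405). Class I genes are near-identical in sequence, and another H2-K1 probe gave -0.03, so the assignment is uncertain. The average of the H2-K1 probes, -0.40, did not pass either (adjusted p = 0.199), so neither call of the list held with averaged probes. The related H2-D1 gave -0.01 ± 0.11 and the light chain B2m -0.05 ± 0.12. The factors Irf1 and Irf2 and the RNA sensor Ddx58 gave -0.15, 0.04 and -0.11, and Ifit2 gave 0.13 ± 0.11. H2-D1, B2m and Ifit2 were named after their values were seen.

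The remaining genes with large falls belong to no list used here. Erich4 was at 4.94, 5.59 and 5.17 with DHT, against 6.34, 6.33 and 6.53 with testosterone (-1.16 ± 0.19, adjusted p = 0.0391). Bnip5 was at 5.62, 5.61 and 5.65 with DHT, against 6.69, 7.01 and 6.60 with testosterone (-1.14 ± 0.17, adjusted p = 0.0266). Both were lower with DHT by more than 2-fold in measured signal, and Bnip5 was detected on 1 of 6 wild-type arrays. Tm9sf3, of the endomembrane system and detected on 2 of 3 DHT arrays, fell by 0.86, Gimap8, an immune-associated GTPase, by 0.82, and Golm2, a Golgi membrane protein, by 0.81 on the log2 scale. Golm2 was read from 4 probes that went different ways, and with these averaged its difference was -0.03 (adjusted p = 0.927).

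Another 10 called genes, named after their values were seen, fell by 0.59 to 0.77 on the log2 scale. Sult1d1, a sulfotransferase, was at 9.31, 9.60 and 9.41 with DHT, against 10.09, 10.26 and 10.25 with testosterone. Pls1, the actin bundler of microvilli, was at 9.40, 9.88 and 9.73 with DHT, against 10.40, 10.52 and 10.36 with testosterone. The purine synthesis gene Paics fell by 0.75, the short-chain fatty acid receptor gene Ffar3 by 0.76, the glucuronyltransferase gene B3gat2 by 0.77 and the ER tether gene Vapa by 0.59. Fbxo8, Zbed4, Pcmtd2 and 4833439L19Rik fell by 0.66, 0.67, 0.74 and 0.60. The other 3 probes of 4833439L19Rik gave 0.26, -0.41 and -0.28, and with all averaged its difference was -0.26 and did not pass (adjusted p = 0.247). Of the 23 called probes that were not a gene's brightest, 7 had no gene name and 16 belonged to genes whose brighter probe did not pass. The brighter probe had the opposite sign for Trim35, Tsc1, Krit1, Acadl, Foxk2, Calm2 and Usp1, and the same sign for the rest of the 16. One of the same sign was Cldn2, the claudin of the leaky proximal tubule junction. Its called probe fell by 0.79 in S42L cells and by 0.84 in wild-type cells, and its brighter probe gave -0.75 ± 0.14 in S42L cells (adjusted p = 0.0544).

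**Figure D4:**
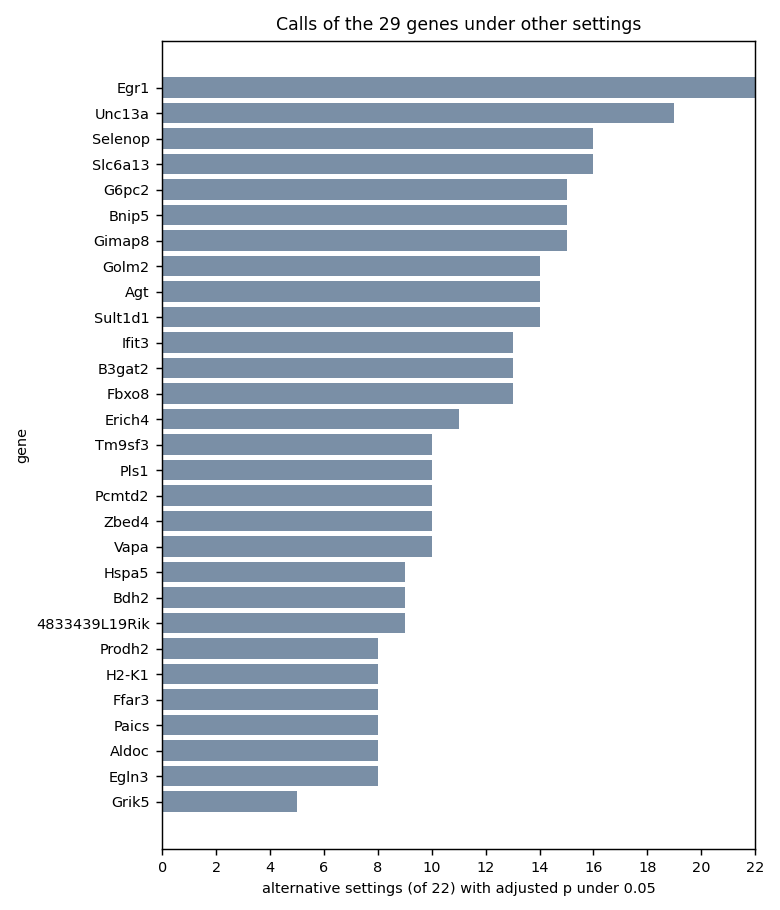
Number of the 22 alternative settings (other scaling, background, filter, fit or 1 array left out) under which each of the 29 genes called in S42L cells had an adjusted p under 0.05. Bars start at 0. Egr1 passed in 22 of 22, Unc13a in 19 and Grik5 in 5.

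No gene of the androgen lists used here passed the test between DHT and testosterone. Called genes outside these lists were not sorted by androgen regulation. Of 29 androgen and glucocorticoid induced genes tested, 0 were called, with 2 higher and 4 lower at an unadjusted p under 0.05 and a median of -0.02. Odc1, ornithine decarboxylase, a known androgen target of the mouse kidney, was at 13.94, 14.13 and 14.31 with DHT, against 13.98, 13.98 and 13.83 with testosterone. The difference was 0.20 ± 0.13 with an interval of -0.08 to 0.48. Fkbp5, a receptor cochaperone induced by androgens and glucocorticoids, was at 9.48, 9.26 and 9.12 with DHT, against 9.22, 9.20 and 9.37 with testosterone. Its interval was -0.22 to 0.27, so a difference of 2-fold between DHT and testosterone lies outside it.

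Tsc22d3, a glucocorticoid-induced leucine zipper gene, gave -0.22 ± 0.12. Prostate androgen targets gave both signs, with the protease gene Tmprss2 at -0.39 ± 0.12 (adjusted p = 0.181) and the transporter gene Abcc4 at 0.26 ± 0.12 (adjusted p = 0.367). Pmepa1, chosen after its values were seen, was at 8.54, 8.39 and 8.41 with DHT, against 8.05, 8.00 and 7.90 with testosterone (0.47 ± 0.11, adjusted p = 0.09). The wild-type value was 0.58. Mt1 and Mt2, metallothioneins that glucocorticoids and metals induce, gave 0.08 ± 0.09 and -0.13 ± 0.17. Nr3c1, the glucocorticoid receptor gene, was detected on 2 of 12 arrays by its best probe and was not tested, and Kap was detected on 0. Genes without a named probe were not analysed here.

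Enzymes that make, convert and clear androgens had 0 calls among 21 genes, with 1 higher and 2 lower at an unadjusted p under 0.05 and a median of -0.02. Hsd17b11, an oxidizing 17-beta-hydroxysteroid dehydrogenase, was at 8.83, 8.92 and 8.70 with DHT, against 8.42, 8.59 and 8.58 with testosterone (0.29 ± 0.13, adjusted p = 0.361). Srd5a3, of the 5α-reductase family, gave -0.13 ± 0.11, the aldo-keto reductase gene Akr1c19 -0.03 ± 0.13 and Hsd17b1 0.01 ± 0.21. The 4 glucuronidation genes had a median of -0.18 and the 10 genes of 17-beta oxidation and reduction 0.10. The 8 steroid receptor coregulators tested had 0 calls (0 higher and 1 lower at an unadjusted p under 0.05).

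Cholesterol synthesis, which SREBP-2 controls as a block, had 0 calls among 21 genes, with 3 higher and 2 lower at an unadjusted p under 0.05. Its median was 0.06, and -0.0057 with median scaling. The early enzymes Mvk, Pmvk and Mvd gave 0.05 ± 0.14, 0.41 ± 0.16 and 0.41 ± 0.12, and the later Sqle, squalene epoxidase, gave 0.09 ± 0.13. In the 69 cell cycle genes there were 0 calls, 3 higher and 6 lower at an unadjusted p under 0.05, and a median of -0.02, with Ccnd1 at -0.03 ± 0.09 and the replication licensing gene Mcm3 at 0.02 ± 0.12. Their intervals were -0.24 to 0.17 and -0.24 to 0.27. Ribosomal proteins (22 genes, -0.32 to 0.18), proteasome subunits (27 genes, -0.67 to 0.23) and the respiratory chain (29 genes, -0.31 to 0.24) had 0 calls each. At an unadjusted p under 0.05, 1, 3 and 1 of their genes passed, against 11.9% of all genes tested. The 44 matrix and integrin genes had 0 calls, with 4 higher and 3 lower at an unadjusted p under 0.05. Col1a1, not above background on the testosterone arrays, was at least 1.20-fold higher with DHT and did not pass (adjusted p = 0.345).

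Of the 46 gene lists, which held 918 tested genes, 7 had at least 1 called gene and 39 had none. The medians of the 42 lists with at least 5 tested genes lay between -0.11 and 0.13, close to the 0.00065 of all genes. The ends were proximal tubule markers and the 14 retinoid metabolism genes. With median scaling, which moved the median of all genes to -0.08, 13 of these 42 medians changed sign. No direction is therefore read from a list median alone.

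**Figure D5:**
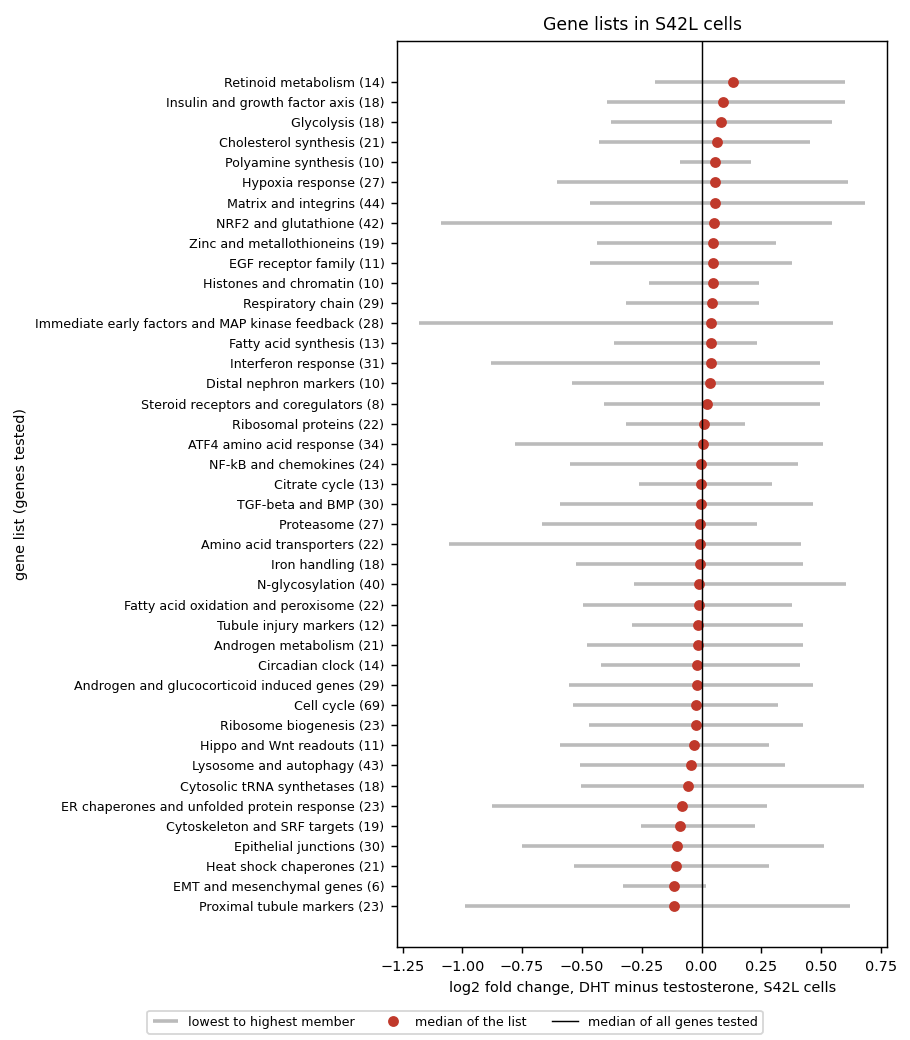
Median DHT minus testosterone difference (log2 units, S42L cells) of each gene list with at least 5 tested genes (red points), with the lowest and highest member (grey bars) and the median of all genes tested (black line). The number of genes is in parentheses. All medians lie between -0.11 and 0.13, while single members reach -1.18.

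In wild-type SHBG cells 14 probes (0.0719%) passed, and 7 genes (0.0677%). Of the 29 genes called in S42L cells, 26 had a wild-type difference of the same sign and 28 a smaller one. The wild-type arrays lay on the same chips as the S42L arrays of the same hormone, so shared direction cannot be told apart from a chip effect. Called probes shared with the same direction numbered 4, which was 7.69% of the S42L calls and 28.6% of the wild-type calls. They were Cldn2 and 3 probes without a gene name. Egln3 was the 1 probe called in both sublines with opposite directions. A larger difference in S42L cells than in wild-type cells was not shown for any of the 29 genes. Only Egln3 passed the test of the difference between sublines. Its difference was opposite in sign and larger in size in wild-type cells (-1.01, against 0.61 in S42L cells). Among the other 28 genes the nearest to passing was Aldoc. The median interval of the difference between sublines reached 0.446 log2 units to either side.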

How the data were processed

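Total RNA of 12 samples was hybridized to Illumina mouse whole-genome bead arrays. The deposited non-normalized table holds linear intensity values (mean bead signal) and detection p-values, per the file headers. They came from BeadStudio, per the submitters' processing notes (version not given in the sources used here). Another deposited table holds the authors' processed intensity values, reaching down to -30.1, and was used as an alternative only. How these were background-corrected is not stated.

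Signals were background-corrected with neqc (limma 3.58.1, R 4.3.3; offset 16), quantile-normalized and expressed as log2 values. Quantile normalization removes shifts shared by most genes. Testing was limited to the 19480 of 45281 probes whose detection p was under 0.05 on 3 or more arrays. By the platform annotation 34885 probes carry 1 gene symbol, 18 several and 10378 none. A linear model with a term for each of the 4 groups was fitted to the 12 arrays with lmFit and eBayes (8 residual and 4.32 prior degrees of freedom) and 3 two-sided contrasts, adjusted by Benjamini-Hochberg over probes. The number of arrays limits the precision.

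Each gene was read from its brightest tested probe. The gene lists and members were chosen with earlier results of these data known. Of 1278 list symbols, 1154 were found by symbol and 20 by synonym, 918 were tested, and 104 were not named and are not analysed here. Genes named are the 15 largest called rises and falls, the called members of each list with up to 3 of its earliest other members, called genes of the subline difference, and a fixed set, with others marked as chosen after seeing values. Alternatives were median scaling, no background correction, an offset of 50, no or a stricter filter, the authors' values, a fit of 6 arrays, an intensity trend, a replicate block, probe averages and leaving out each array. Promoter windows came from RefSeq (GRCm38.p6).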

Additional observations from a re-analysis of the deposited data

Results flagged for a closer look

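Egln3, read from its brighter probe, differed between the sublines in its response to DHT against testosterone. The difference was 1.63 ± 0.14 log2 units (S42L minus wild-type, adjusted p = 0.00135 in limma), and the dimmer probe did not pass. It was higher with DHT on 3 of 3 S42L arrays and lower with DHT on 3 of 3 wild-type arrays than on any testosterone array of the same subline.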

How the results depend on the processing

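The count of 52 probes called in S42L cells depended on the processing. It was 193 with median scaling (4 higher, 189 lower, against 8 and 44), 353 without background correction, 229 with an offset of 50, 29 without a filter, 109 with detection required on all 3 arrays of a group, 121 with the authors' values, 19 with only the 6 arrays and 300 with an intensity trend. Leaving out 1 array gave 2 to 196, the highest without wild-type testosterone replicate 3. The 14 wild-type calls became 71, 54, 9, 28 and 25 under the second to sixth of these settings, 0 in limma with only the 6 arrays (1803 at an unadjusted p under 0.05), and 70 with the trend, and 4 to 14 with 1 array left out. The 1 probe of the subline difference became 2 without background correction, with an offset of 50 and with the trend, and stayed 1 with any array left out. Replicate numbers do not pair the arrays: same-numbered arrays correlated at -0.047 to 0.12, over 0.1 in 1 of 18 pairs. The replicate block gave 5 calls in S42L cells, 8 in wild-type cells and 1 for the difference. No called gene changed direction under any setting. Egr1 passed in all 22, 7 genes in at least 15, and 6 in the fit of 6 arrays. The cause of these changes was not tested. Dim genes with a group undetected have only a bound.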
